A study of Mus musculus with 9 samples.

Results

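The kinesin motor family was followed through fully grown mouse oocytes with and without the mTOR kinase gene. Its members were taken by name, as every gene symbol that starts with Kif and a digit, or with Kifc and a digit. This gave 42 of the 24228 genes used, of which 41 are genes and 1, Kif4-ps, is a pseudogene of Kif4. The rule leaves out kinesins with other names, such as Cenpe, which is on the list of spindle partners below. Levels are FPKM, fragments scaled for transcript length and sequencing depth, so they may be compared between genes.

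The oocytes were at the germinal vesicle stage, the arrest in meiotic prophase, and came from large antral follicles of C57BL/6 females given 5 IU of PMSG, a follicle-stimulating gonadotropin, 46 h earlier. MG oocytes had Mtor deleted by Cre under the Gdf9 promoter, MZ oocytes had it deleted by Cre under the Zp3 promoter, and WT oocytes were labelled wild type, with 3 libraries in each group. Both promoters drive Cre in oocytes, Gdf9 from an earlier follicle stage than Zp3, so the surrounding granulosa cells keep Mtor. The labels do not say whether the wild-type females carried the Cre-sensitive Mtor allele, nor do they tie libraries to separate animals. The p-values therefore rest on library-to-library spread that could be purely technical. Age stands as 23 days in the series design but as 6 months in the sample labels, a conflict that was not resolved.

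Kinesins are motor proteins that hydrolyse ATP to step along microtubules or to take microtubule ends apart. Most walk to the plus end and carry vesicles, mitochondria or ciliary components, the kinesin-14 motors walk to the minus end, and the kinesin-13 motors depolymerize. The mouse oocyte builds its meiotic spindle without centrioles, and it relies on motors such as Kif11 and Kifc1 to sort microtubules into poles. Kif2c is known from mitosis for correcting faulty chromosome attachments. At the germinal vesicle stage no spindle has formed yet, and the transcripts are part of a stored maternal pool.

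The libraries held between about 516949 fragments in genes (MG 1) and 925403 (MZ 2), an approximate depth read from the steps between low FPKM values. A single fragment in a 1 kb transcript was worth between 1.33 FPKM (MG 3) and 2.39 FPKM (MZ 1). The FPKM of all genes summed to 428329 to 554305 in MG, 657851 to 677618 in MZ and 584503 to 718684 in WT, with the lowest sum in MG 3. The summed level of 10 oocyte markers was 16526.5 to 31377 FPKM in MG, 32567 to 34085 in MZ and 28034 to 32236 in WT. The summed level of 16 granulosa and cumulus cell markers was 25.7 to 44.0 FPKM in MG, 24.0 to 26.2 in MZ and 20.8 to 34.7 in WT. Of these 16 markers 6 had a mean above 1 FPKM, and 2, Foxl2 and Amhr2, were listed at 0 in all libraries. The 8 theca and stroma markers summed to 13.999 to 61.7 FPKM and the 8 blood and endothelial markers to 25.6 to 183 FPKM over the 9 libraries. The part of these markers in the kinesin results was not tested. Mtor itself stood at 5.29 ± 0.68 FPKM in MG, 5.20 ± 1.18 in MZ and 3.17 ± 0.20 in WT (SD, n = 3 each), with no call in any comparison. Every MG and every MZ value of Mtor lay above every WT value. Of all tested genes, 11.6% were higher without overlap in MG than in WT, and 5.67% in MZ than in WT. A whole-gene value also counts exons outside the deleted part, so this level is no check on the recombination. MG and MZ therefore mean the libraries with those labels.

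Of the 42 kinesins, 11 had a mean of at least 10 FPKM over the 9 libraries, 11 had a mean from 1 to under 10, 15 were above 0 somewhere with a mean under 1, and 5 were listed at 0 throughout. The 22 kinesins with at least 1 FPKM in at least 3 libraries were tested, and each of them reached 1 FPKM in libraries of more than 1 group. The 42 members together summed to 420 to 551 FPKM in MG, 541 to 634 in MZ and 517 to 633 in WT. As a share of all FPKM this was 0.0971% to 0.0993% in MG, 0.0820% to 0.0940% in MZ and 0.0881% to 0.0910% in WT. All 3 MG shares lay above all MZ and WT shares, and the MG libraries also had the lower FPKM sums that the share divides by. Cenpe, which is outside these sums, averaged 9.68 FPKM in MG, 8.82 in MZ and 8.08 in WT, with no limma call in any comparison.

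Kif17, a homodimeric kinesin-2 motor known for dendritic and ciliary transport, was the most abundant kinesin. It ranked 408 among the 10801 tested genes by mean level. It had 241, 201 and 98.0 FPKM in MG, 256, 298 and 244 FPKM in MZ, and 269, 186 and 250.3 FPKM in WT. MG 3 was far below the other 8 libraries. Kif17 made up 23.3% to 43.8% of the summed kinesin FPKM in MG, 45.0% to 47.0% in MZ and 35.98% to 42.5% in WT. The other kinesin-2 subunits were far lower, with means over the 9 libraries of 5.77 FPKM for Kif3a, 3.07 for Kif3b and 0.418 for Kif3c. In the GENCODE M21 annotation the exons of Kif17 overlap those of Sh2d5 on chromosome 4 (GRCm38, 138250435 to 138301967, plus strand, protein coding). The deposited locus of Kif17 starts within 2 bases of 138262251, inside that span. Whether the overlap falls within the deposited locus was not checked, so it is not known whether reads are shared.

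The promoter windows of 3 kinesins on which the results turn are shown here, running from 250 bases before to 50 bases after the RefSeq gene start (GRCm38.p6). They are Kif17, the most abundant member, and Kif2c and Kif2a, depolymerases of the same subfamily with different patterns across the groups. Capitals mark matches to CCAAT, to the cell cycle homology region TTTGAA, to the E-box CANNTG, each on either strand, and to the cyclic AMP response element TGACGTCA, which was added after the Kif17 sequence had been seen.
Kif17, chr4:138262001-138262300, plus strand: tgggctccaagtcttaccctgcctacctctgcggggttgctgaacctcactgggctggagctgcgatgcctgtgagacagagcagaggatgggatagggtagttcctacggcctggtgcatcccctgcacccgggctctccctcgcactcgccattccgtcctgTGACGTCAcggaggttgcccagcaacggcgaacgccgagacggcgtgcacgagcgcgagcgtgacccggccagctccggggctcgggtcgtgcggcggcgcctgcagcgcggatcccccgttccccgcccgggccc
Kif2c, chr4:117178723-117179022, minus strand: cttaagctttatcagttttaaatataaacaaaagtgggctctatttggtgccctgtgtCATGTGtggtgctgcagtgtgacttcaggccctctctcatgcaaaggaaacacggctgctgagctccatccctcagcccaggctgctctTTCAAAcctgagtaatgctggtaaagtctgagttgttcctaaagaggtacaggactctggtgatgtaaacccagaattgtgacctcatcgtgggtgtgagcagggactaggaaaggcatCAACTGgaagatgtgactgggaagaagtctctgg
Kif2a, chr13:107022065-107022364, minus strand: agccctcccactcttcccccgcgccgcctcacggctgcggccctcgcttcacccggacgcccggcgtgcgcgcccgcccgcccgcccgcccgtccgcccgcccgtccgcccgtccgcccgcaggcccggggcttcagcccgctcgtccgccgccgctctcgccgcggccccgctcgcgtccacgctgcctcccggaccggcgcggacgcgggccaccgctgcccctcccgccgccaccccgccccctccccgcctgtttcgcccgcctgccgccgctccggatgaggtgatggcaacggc

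The Kif17 window held 1 response element match and none of the other motifs, the Kif2c window held 1 TTTGAA match, read on the opposite strand, and 2 E-boxes, and the Kif2a window held no match to any of the 4 motifs. No matches overlapped. Over the 32851 windows of the table, 17.9% hold TTTGAA, 37.4% CCAAT, 72.3% CANNTG and 1.79% TGACGTCA. Of the 37 windows of 33 kinesins, 14 hold TTTGAA, 17 CCAAT, 22 CANNTG and 3 TGACGTCA. The TTTGAA windows belonged to Kif11, Kif14, Kif15, Kif18b, Kif20b, Kif22, Kif23, Kif2c, Kif4, Kifc1 and Kifc5b of the division groups and to Kif1a, Kif26b and Kif27. The Kif2a window was the one of its 2 whose start lies at the edge of the deposited locus, and the start of the Kif2c window lies 3852 bases inside the deposited locus. A match is a run of letters and not a binding site.

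Apart from Kif17, the kinesins above 10 FPKM were motors of cell division. Among those that act on chromosomes and microtubule ends, Kif22, a chromokinesin that pushes chromosome arms away from the poles, had 56.4, 43.5 and 41.4 FPKM in MG, 51.7, 92.0 and 54.3 in MZ, and 81.4, 54.6 and 87.6 in WT. MG 2 and MG 3 lay below all other libraries, and the groups overlapped. Kif2c, the centromeric depolymerase also called MCAK, had 44.9, 41.8 and 37.3 FPKM in MG, 39.2, 44.4 and 48.8 in MZ, and 60.5, 67.1 and 75.9 in WT. Every MG and every MZ value lay below every WT value, while MG and MZ overlapped. Kif4, a chromokinesin that also shapes the central spindle, had 34.3, 41.1 and 43.5 FPKM in MG, 31.7, 40.9 and 32.3 in MZ, and 34.6, 30.8 and 30.0 in WT, with overlap between all groups. Kif2a, a depolymerase of spindle poles, had 12.2, 21.7 and 32.1 FPKM in MG, 12.2, 12.1 and 9.71 in MZ, and 10.0, 17.3 and 7.77 in WT. MG 2 and MG 3 exceeded all other libraries, and MG 1 lay within the WT range. Kif18a, a kinesin-8 motor that damps chromosome movements, stood between 10.0 and 16.7 FPKM in all 9 libraries. Its relative Kif18b averaged 0.810 FPKM, and Kif2b was listed at 0 throughout.

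The 4 kinesins of the central spindle and cytokinesis were all present. Kif23, a subunit of centralspindlin, had 25.2, 31.8 and 24.2 FPKM in MG, 43.3, 36.3 and 28.6 in MZ, and 33.9, 32.1 and 20.2 in WT. Kif14, which binds the midzone protein Prc1, had 10.9, 18.8 and 24.7 FPKM in MG, 15.1, 13.7 and 15.3 in MZ, and 18.2, 16.0 and 16.8 in WT. Kif14 spanned a wider range in MG than in the other groups. Kif20a, which brings the chromosomal passenger complex to the midzone, had 9.19, 11.01 and 15.04 FPKM in MG, 12.9, 14.8 and 13.8 in MZ, and 18.1, 14.9 and 17.999 in WT. All MZ values of Kif20a lay below all WT values, and MG overlapped both. Kif20b, an abscission motor, ranged from 7.85 to 13.95 FPKM.

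Of the 4 motors of spindle assembly 3 were tested. Kifc1, the minus-end motor that focuses poles, had 23.6, 12.7 and 7.47 FPKM in MG, 21.6, 20.5 and 24.6 in MZ, and 38.2, 18.5 and 24.2 in WT. MG 2 and MG 3 were lower than all other libraries. The near copy Kifc5b had 1.79, 0.690 and 0 FPKM in MG, 0.896, 2.30 and 2.14 in MZ, and 5.41, 3.39 and 0 in WT. Of the 100-base windows of the longest Kifc1 transcript, 23.7% also occur in Kifc5b, so reads may be divided between them and both values are uncertain. Kif11, the kinesin-5 that pushes poles apart, had 6.90, 6.76 and 5.68 FPKM in MG, 2.78, 2.96 and 3.67 in MZ, and 3.19, 3.06 and 5.42 in WT, so every MG value was above every MZ and WT value. Kif15, which can stand in for Kif11, averaged 0.200 FPKM and was above 0 in 3 libraries.

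Of the 17 cargo motors 8 were tested, and except for Kif17 their means were under 10 FPKM. Kif16b, which carries early endosomes, had 9.29, 9.06 and 10.2 FPKM in MG, 7.73, 4.68 and 5.16 in MZ, and 4.89, 4.99 and 5.16 in WT, with every MG value above every other. Kif5c, a heavy chain of conventional kinesin-1, had 4.77, 7.38 and 8.75 FPKM in MG, 2.56, 3.69 and 3.05 in MZ, and 5.51, 3.93 and 3.44 in WT. MG and MZ did not overlap for Kif5c, while MG and WT did. Kif3a, which pairs with Kif3b in the heterotrimeric kinesin-2 of cilia, had 10.9, 5.95 and 7.50 FPKM in MG, 2.86, 5.22 and 4.21 in MZ, and 6.67, 6.17 and 2.39 in WT. Kif3b had 3.52, 2.42 and 2.85 FPKM in MG, 5.91, 3.78 and 3.75 in MZ, and 2.03, 1.86 and 1.54 in WT. The 3 groups of Kif3b did not overlap at all, with MZ highest and WT lowest, on about 28, 39 and 14 fragments over the 3 libraries of MG, MZ and WT. Kif1b, a carrier of mitochondria and synaptic vesicle precursors, averaged 6.81 FPKM, the minus-end motor Kifc3 5.69 and the heavy chain Kif5b 3.42, all with overlapping groups. The neuronal motors Kif1a and Kif5a were above 0 in 1 library each, and Kifc2 was listed at 0 throughout.

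Of the 9 remaining genes, with ciliary, signalling or other roles, 2 were tested. Kif24, a centriolar kinesin-13 that restrains cilia, had 5.50, 2.74 and 5.30 FPKM in MG, 4.36, 3.54 and 2.51 in MZ, and 5.11, 5.61 and 4.64 in WT. Kif9, a motor of motile cilia and sperm tails, had 2.30, 3.45 and 4.47 FPKM in MG, 2.18, 2.33 and 1.35 in MZ, and 1.88, 1.38 and 2.13 in WT. Kif6, Kif12 and Kif19a were listed at 0 in all libraries. Kif7 and Kif27, relatives linked to Hedgehog signalling, and Kif26a and Kif26b averaged at most 0.136 FPKM. Among the 20 kinesins that were not tested no library exceeded 2.18 FPKM, a level that rests on a few fragments.

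**Figure D1:**
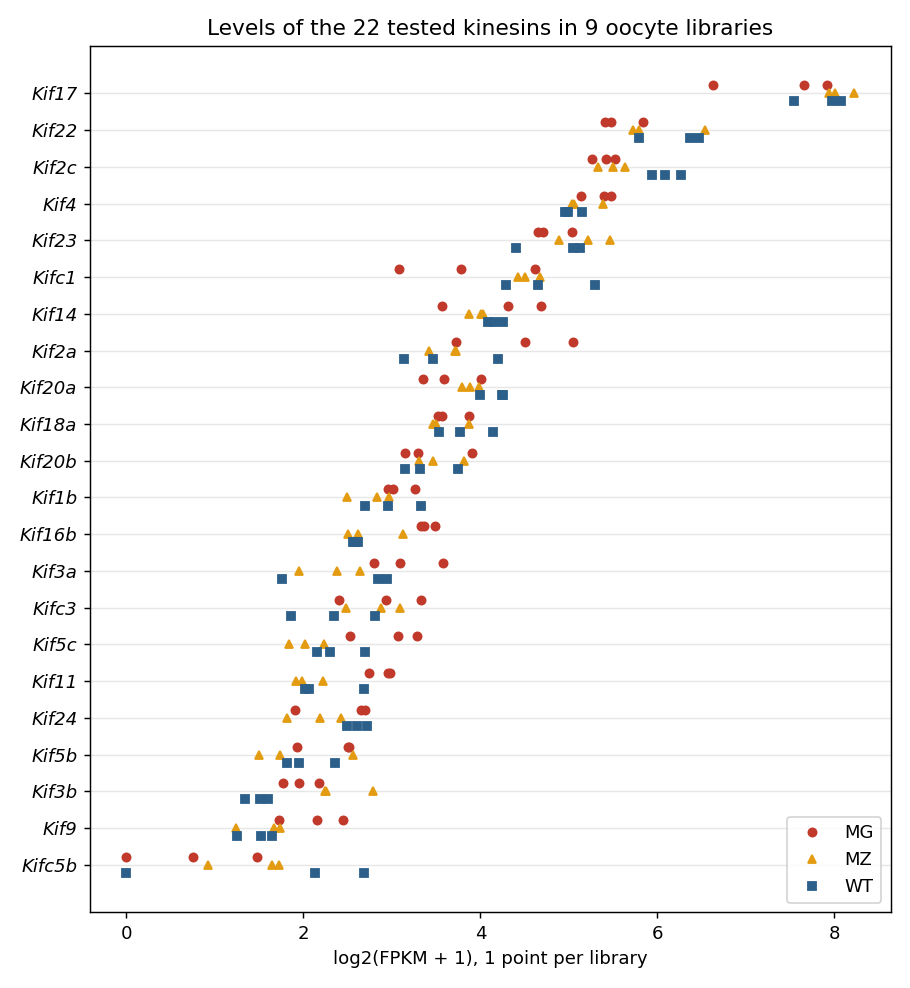
Levels of the 22 tested kinesins in each library as log2(FPKM + 1), ordered by mean, with MG (circles), MZ (triangles) and WT (squares) running down the page within each gene. Kif17 stands above the rest in every library, and the Kif2c points of MG and MZ lie left of those of WT.

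Neighbouring genes in this order overlapped in most cases. Kif22 (41.4 to 92.0 FPKM) and Kif2c (37.3 to 75.9 FPKM) covered much of the same range, as did Kif4 (30.0 to 43.5 FPKM) and Kif23 (20.2 to 43.3 FPKM). Kif17 was the exception, since its lowest value of 98.0 FPKM was above the highest value of any other kinesin.

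MG and WT oocytes were compared to see how Gdf9-Cre deletion of Mtor affects the kinesin transcripts. Each library is bulk RNA, so fewer cells of a type and less RNA per cell cannot be told apart. Kif2c had a log2 fold change of -0.70 ± 0.19 on the log2(FPKM + 1) scale (SE; 41.3 ± 3.84 FPKM in MG and 67.8 ± 7.77 in WT, SD, n = 3 each), but it did not pass the limma test over all genes (adjusted p = 0.12). Kif16b had a log2 fold change of 0.80 ± 0.29 (9.52 ± 0.60 FPKM in MG and 5.02 ± 0.13 in WT, limma adjusted p = 0.19). Neither group pair overlapped. For Kifc1 the log2 fold change was -0.92 ± 0.38 (14.6 ± 8.25 FPKM in MG, 27.0 ± 10.2 in WT, limma adjusted p = 0.24), and for Kif22 it was -0.63 ± 0.27 (47.1 ± 8.13 and 74.5 ± 17.6 FPKM, limma adjusted p = 0.26). Kif2a had 0.83 ± 0.37 (21.97 ± 9.96 FPKM in MG, 11.7 ± 5.01 in WT, limma adjusted p = 0.28) and Kif20a -0.52 ± 0.25 (11.7 ± 3.00 and 17.0 ± 1.82 FPKM, limma adjusted p = 0.32). The groups of these last 4 genes overlapped.

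With limma, 0 of the 22 tested kinesins passed an adjusted p of 0.05, where 0.343% of all 10801 genes did. At an unadjusted p under 0.05 there were 5 kinesins, where 17.7% of all genes lay under it. Groups without overlap were found for 4 kinesins higher in MG (Kif16b, Kif11, Kif9 and Kif3b), against 11.6% of all genes, and for 1 lower in MG (Kif2c), against 9.89%. These counts are a description. The authors' deposited table, made with Cuffdiff, gives q under 0.05 for 3 kinesins, namely Kif2a (log2 fold change 0.90 of MG over WT, q = 0.029), Kif2c (-0.72, q = 0.033) and Kifc1 (-0.90, q = 0.049). In the same deposited table such a q was given to 1.84% of all genes and to 12.7% of those with a deposited p under 1, and 34 of the 42 kinesins have a deposited p of 1.

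By role, 7 of the 8 tested cargo motors had a positive log2 fold change for MG against WT, with a median of 0.52 and Kif17 as the exception (-0.46 ± 0.30). None of them passed. The 7 all had means under 10 FPKM. Of the other tested kinesins under 10 FPKM, Kif11 and Kif9 were also positive, and Kif24 and Kifc5b negative. With the filter at 5 FPKM in 3 libraries the median of all genes was -0.05 and that of the 18 kinesins left 0.03. The part of expression level in the split by role was not tested. Of the 5 tested chromosome motors 2 were positive and 3 negative (median -0.16), of the 4 central spindle motors 2 and 2 (median -0.02), and of the 3 spindle assembly motors 1 and 2. The median of these 3, -0.86 ± 0.67, is the value of Kifc5b itself, which rests on about 22 fragments over the 9 libraries. Over all 22 the median was 0.07, beside 0.04 for all tested genes, of which 53% were positive and 47% negative; of the kinesins 13 were positive and 9 negative. With every library scaled to the same FPKM sum the median of all genes moved to 0.36 and that of the kinesins to 0.42, and 16 of 22 kinesins were positive there. Under that scaling Kif2c was at -0.32, Kif22 at -0.25 and Kif20a at -0.15, so their distance from WT depends on how libraries are set to each other.

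**Figure D2:**
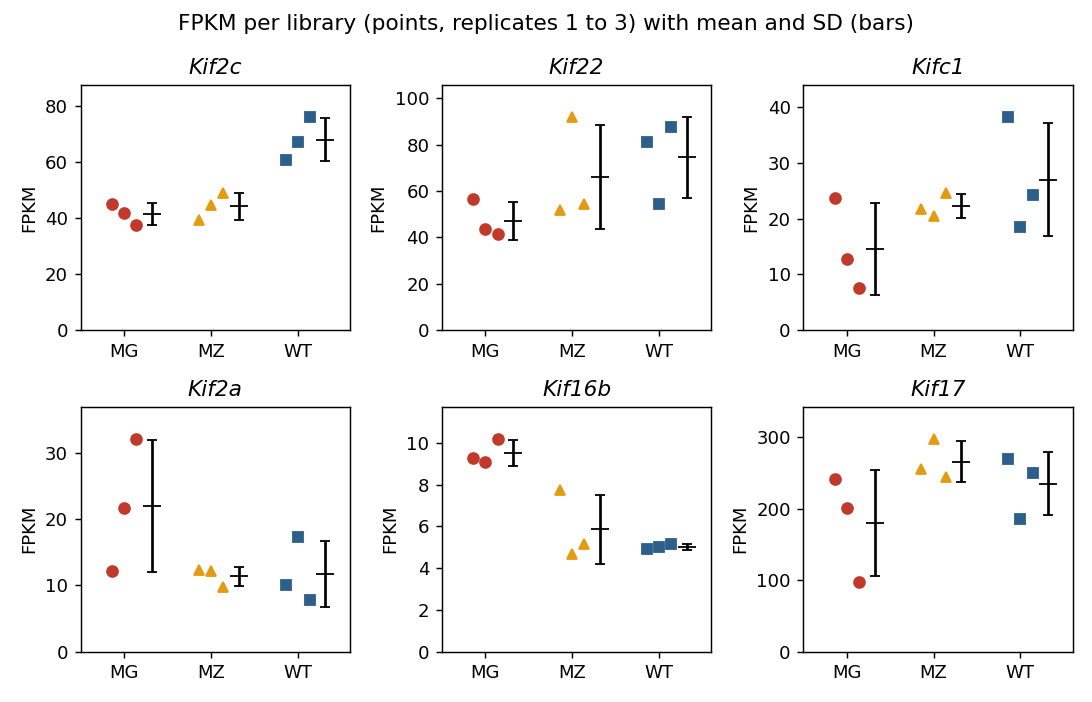
FPKM of 6 kinesins in each library, with MG, MZ and WT from left to right, points for replicates 1 to 3 and bars for the mean and SD (n = 3). Kif2c shows MG between 37.3 and 44.9 and MZ between 39.2 and 48.8, all below WT, while Kif2a, Kifc1 and Kif17 spread widely within MG.

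Of the MG libraries, MG 1 was highest for 11 of the 22 tested kinesins and lowest for 8. For MG 3 these counts were 10 and 7, and those for MG 2 were 1 and 7. MG 3 held the lowest MG value of Kif17, Kifc1, Kif22 and Kif2c and the highest of Kif2a, Kif14 and Kif20a. Its FPKM sum was also the lowest of the 9 libraries, and so were its levels of the abundant oocyte transcripts Gdf9 (7327 FPKM, against 14940 to 18480 in the other libraries) and Zp3 (555 FPKM, against 1061 to 1550). Their part in the kinesin values of MG 3 was not tested. With MG 3 left out, the log2 fold change for MG against WT was 0.51 for Kif2a, -0.55 for Kifc1 and -0.63 for Kif2c. The first 2 of these moved by more than 1.5 times, and their limma adjusted p became 0.56 and 0.50. Leaving out WT 1 gave -0.64 for Kifc1 (limma adjusted p = 0.50). MG 1 had the least Kif2a and the most Kif2c of the MG libraries, and MG 3 the reverse, as the plot of both genes shows.

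**Figure D3:**
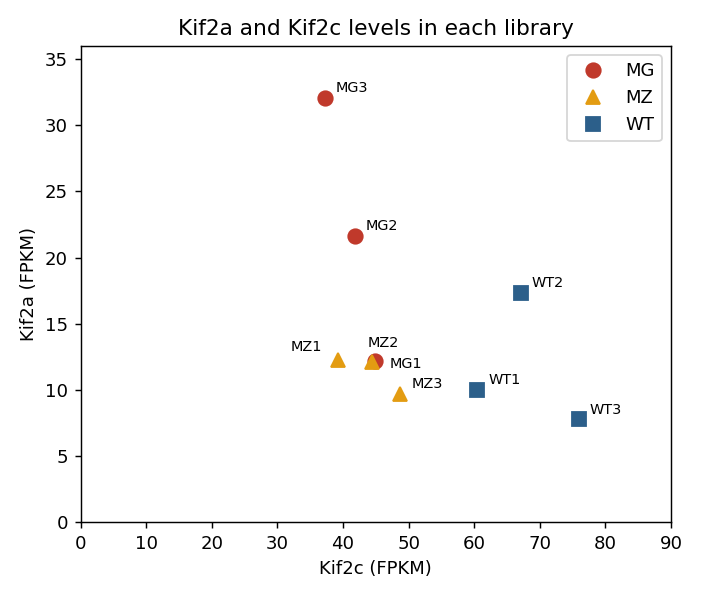
Kif2a against Kif2c, both in FPKM, with 1 point per library for MG (circles), MZ (triangles) and WT (squares). The WT libraries lie to the right at 60.5 to 75.9 FPKM of Kif2c, and MG 2 and MG 3 lie above the rest at 21.7 and 32.1 FPKM of Kif2a.

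The ratio of Kif2a to Kif2c does not depend on how libraries are scaled to each other. It was 0.271, 0.518 and 0.861 in MG, 0.312, 0.274 and 0.199 in MZ, and 0.166, 0.259 and 0.102 in WT. Every MG ratio was above every WT ratio, and MG 1 lay within the MZ range. This ratio was chosen after the values had been seen and was not tested.

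MZ and WT oocytes were compared to ask this of the Zp3-Cre deletion. Kif2c again had the smallest p of the family, with a log2 fold change of -0.61 ± 0.19 (44.1 ± 4.77 FPKM in MZ and 67.8 ± 7.77 in WT, SD, n = 3 each; limma adjusted p = 0.64). Kif3b had 0.94 ± 0.34 (4.48 ± 1.24 FPKM in MZ and 1.81 ± 0.25 in WT, limma adjusted p = 0.74). Neither passed, and in both the groups did not overlap. MG and MZ were compared with the same WT libraries, so their Kif2c values are not independent of each other. The other 4 of the 6 smallest p were those of Kif24 (log2 fold change -0.47 ± 0.35), Kif23 (0.33 ± 0.26), Kifc3 (0.48 ± 0.38) and Kif20a (-0.28 ± 0.25), all with limma adjusted p between 0.87 and 0.89. Of these, Kif23 was at 0.11 without WT 3 and 0.19 without MZ 1, Kifc3 at 0.24 without WT 3 and Kif24 at -0.31 without MZ 3.

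With limma, 0 of 22 kinesins passed for MZ against WT, where 0.037% of all genes did, and 2 had an unadjusted p under 0.05, where 6.3% of all genes did. Groups without overlap numbered 1 higher in MZ (Kif3b), against 5.67% of all genes, and 4 lower in MZ (Kif2c, Kif24, Kif20a and Kif14), against 6.52%. The median over the 22 was -0.18, beside 0.01 for all tested genes, with 9 positive and 13 negative, where 51.1% and 48.9% of all genes were. Of the role groups, all 3 spindle assembly motors had negative values, between -0.21 and -0.17, each smaller than its SE. The authors' deposited table has 0 kinesins with q under 0.05 here, where 0.351% of all genes and 2.55% of those with a deposited p under 1 did, and gives Kif2c a log2 fold change of -0.62 for MZ over WT with q = 0.062.

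The comparison of MG with MZ tests whether the deletions differ from each other. Kif5c (log2 fold change 0.93 ± 0.34; 6.97 ± 2.02 FPKM in MG, 3.10 ± 0.56 in MZ; limma adjusted p = 0.18) and Kif11 (0.85 ± 0.33; 6.45 ± 0.67 and 3.14 ± 0.47 FPKM; limma adjusted p = 0.21) had the smallest p. Both were without overlap, and neither passed. Kif16b (0.64 ± 0.29), Kif2a (0.80 ± 0.37) and Kif3a (0.83 ± 0.40) were on the same side, and Kif17 was on the other side with -0.65 ± 0.30 (180 ± 73.9 FPKM in MG, 266 ± 28.4 in MZ), all with limma adjusted p between 0.28 and 0.31. Without MG 3 the value of Kif17 was -0.27 and that of Kif2a 0.49. For Kif2c the difference between MG and MZ was -0.09 with a 95% interval from -0.50 to 0.32. Differences within that interval remain compatible with these data.

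With limma, 0 of 22 kinesins passed for MG against MZ, where 0.13% of all genes did, and 3 had an unadjusted p under 0.05, where 17.6% of all genes did. Groups without overlap were found for 4 kinesins higher in MG (Kif5c, Kif11, Kif16b and Kif3a), against 12.8% of all genes, and for 2 lower in MG (Kif17 and Kif3b), against 12.3%. The median was 0.13, beside 0.04 for all tested genes, and 13 kinesins were positive and 9 negative, where 53.3% and 46.7% of all genes were. Scaled to the same FPKM sum, the medians were 0.52 for the kinesins and 0.39 for all genes, with Kif17 at -0.22. The authors' deposited table runs this comparison as MZ over MG and gives q under 0.05 for Kif2a (log2 fold change -0.94 of MZ over MG, q = 0.0048) and Kif17 (0.58, q = 0.023), where 4.03% of all genes, and 26.5% of those with a deposited p under 1, had such a q.

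**Figure D4:**
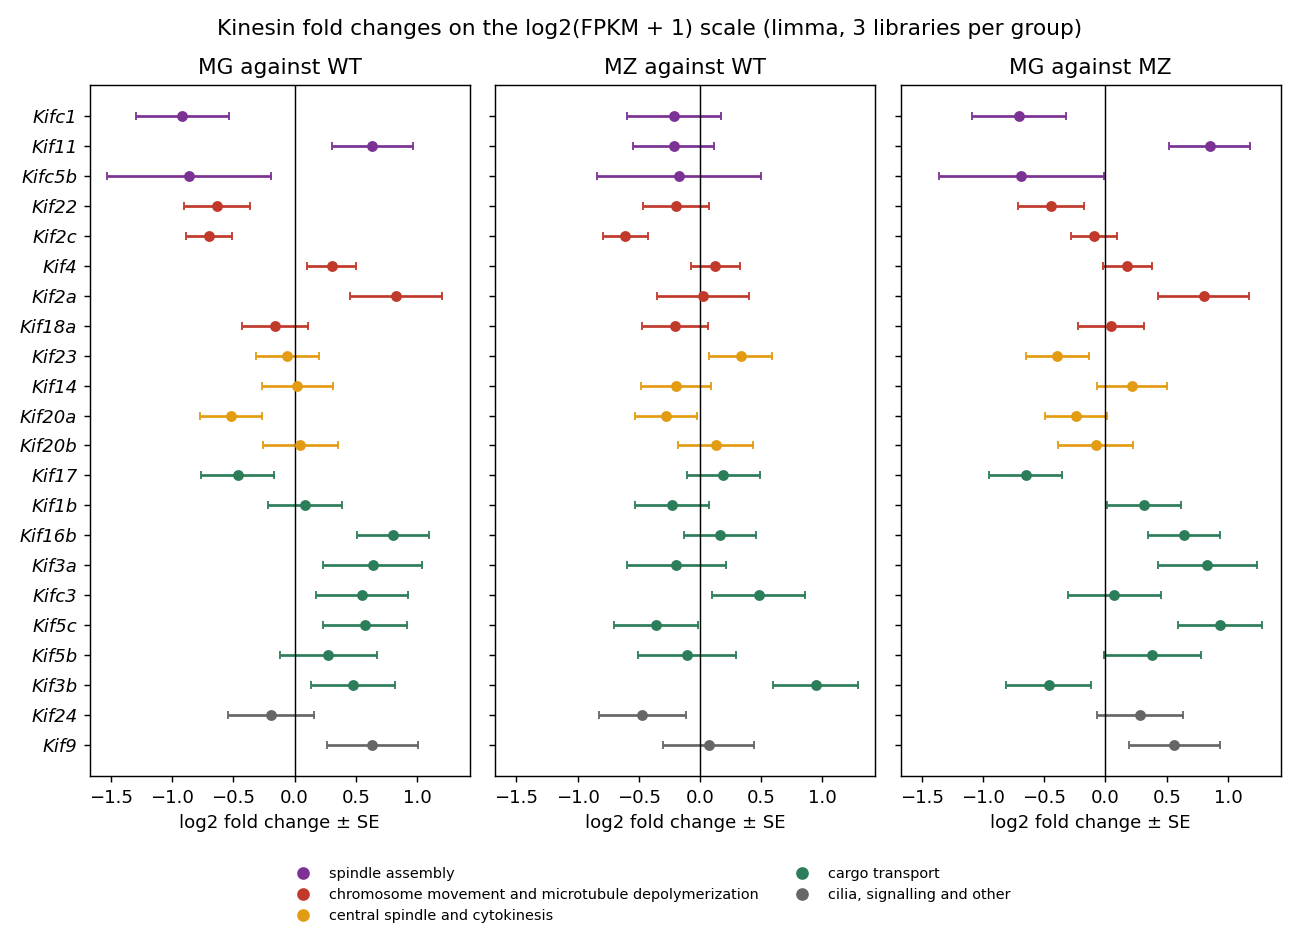
Log2 fold changes of the 22 tested kinesins with their SE (limma, 3 libraries per group), grouped by role, with panels for MG against WT (left), MZ against WT (middle) and MG against MZ (right). In the left panel 7 of 8 cargo motors lie right of 0 and Kif2c, Kifc1 and Kif22 lie left of it, and no point passed the adjusted test.

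Genes that work with kinesins were read from lists fixed with earlier results known. Of 34 spindle partners 33 were tested, and for MG against WT 22 were negative and 11 positive (median -0.14), where 47% and 53% of all genes were. Without overlap 8 were lower in MG and 1 higher, against 9.89% and 11.6% of all genes. At an unadjusted limma p under 0.05 there were 10, where 17.7% of all genes lay under it. A single member passed by limma, against 0.343% of all genes. Nusap1, which bundles microtubules at chromosomes, fell to 95.5 ± 9.63 FPKM in MG, against 193 ± 33.2 in WT (log2 fold change -0.998 ± 0.18, adjusted p = 0.044), and its exons overlap Oip5. This call was not rerun under the alternatives below, which followed kinesins only. Of all genes, 17 passed as lower in MG in this fit and 5 with the same FPKM sum. Aurka, the spindle pole kinase, was at 125 ± 24.5 FPKM in MG and 249 ± 34.7 in WT and did not pass (limma adjusted p = 0.060). For MG against MZ, Aurka (125 ± 24.5 FPKM in MG, 251 ± 13.6 in MZ, limma adjusted p = 0.068) and Nusap1 (95.5 ± 9.63 and 163 ± 3.29 FPKM, limma adjusted p = 0.082) had the smallest p. Of the 33, 20 were negative (median -0.19), where 46.7% of all genes were. Without overlap 11 were lower in MG and 3 higher, against 12.3% and 12.8% of all genes. An unadjusted limma p under 0.05 was found for 11, where 17.6% of all genes had one. For MZ against WT 15 of 33 were negative (median 0.02), where 48.9% of all genes were. An unadjusted limma p under 0.05 was found for 0, where 6.3% of all genes had one. The smallest limma adjusted p was 0.81, for the microtubule-binding protein Map4 (27.2 ± 3.04 FPKM in MZ, 20.02 ± 7.15 in WT), followed by the passenger complex kinase Aurkb (10.1 ± 4.31 and 14.5 ± 3.29).

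Dynein, the main minus-end motor, its cofactor dynactin, and adaptors and regulators of dynein were represented by 25 tested genes of 30. The list includes Ndel1, Nde1 and Pafah1b1 as regulators, and Numa1, which is also on the list of spindle partners. For MG against WT 15 were positive and 10 negative (median 0.11), where 53% and 47% of all genes were. By limma 0 passed, where 0.343% of all genes did, and 4 had an unadjusted p under 0.05, where 17.7% of all genes did. Ndel1 had 46.7 ± 21.4 FPKM in MG and 88.3 ± 22.5 in WT (limma adjusted p = 0.15), and its partner Pafah1b1, also known as Lis1, had 23.9 ± 2.65 and 14.01 ± 4.41 (limma adjusted p = 0.18). For MG against MZ 17 were positive (median 0.06), where 53.3% of all genes were. By limma 0 passed, where 0.13% of all genes did, and 4 had an unadjusted p under 0.05, where 17.6% of all genes did. The light chain gene Dynlt3 had 93.3 ± 16.8 FPKM in MG and 49.7 ± 8.24 in MZ (limma adjusted p = 0.095), and Ndel1 46.7 ± 21.4 and 86.4 ± 5.89 (limma adjusted p = 0.13). For MZ against WT 15 were positive (median 0.09), where 51.1% of all genes were. By limma 0 passed, where 0.037% of all genes did, and 1 had an unadjusted p under 0.05, where 6.3% of all genes did. It was the intermediate chain gene Dync1i1 (0.890 ± 1.09 FPKM in MZ, 3.31 ± 1.02 in WT), followed by Nde1 (7.43 ± 0.95 and 10.9 ± 1.9999).

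Of 18 kinesin light chains and cargo adaptors 12 were tested, and 0 passed by limma in any comparison, with 1, 0 and 1 at an unadjusted p under 0.05 in MG against WT, in MZ against WT and in MG against MZ. Of all genes 17.7%, 6.3% and 17.6% had such a p in these comparisons, and 0.343%, 0.037% and 0.13% passed. The medians were 0.14, 0.03 and 0.06 in the same order. Trak2, a mitochondrial adaptor, had 1.48 ± 0.38 FPKM in MG, 0.970 ± 0.48 in MZ and 0.327 ± 0.02 in WT, and Kidins220, a membrane scaffold bound by Kif5, had 6.93 ± 1.83, 4.02 ± 1.38 and 3.92 ± 0.95. Kifap3, the accessory subunit of Kif3a and Kif3b, averaged 1.16 ± 0.53 FPKM in MG, had only zeros in MZ and averaged 0.728 ± 0.83 in WT. Trak2 was the member with an unadjusted limma p under 0.05 for MG against WT, and Kifap3 that for MG against MZ. Trak2 lay below 1 FPKM in every WT library and Kifap3 at 0 in every MZ library. Each was tested only through its levels in the other groups, so these differences are not independent of the filter. Values this low rest on few fragments.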

How the data were processed

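RNA of fully grown oocytes was amplified by Smart-seq2 and made into libraries with a NEBNext Ultra kit, per the labels' protocols. Per the series design and the submitters' processing notes, the authors mapped trimmed 150 bp read pairs onto mm10 (TopHat2 2.0.13) and derived FPKM in Cufflinks 2.2.1. The deposited log2 fold changes, p-values and q-values are the authors' Cuffdiff results, per the file headers. Strand handling is not stated.

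Of 24255 table rows, 27 whose symbols had become dates were left out, and no column outside the 9 libraries and the authors' comparisons was used. Genes with at least 1 FPKM in at least 3 of 9 libraries were fitted as log2(FPKM + 1) with limma 3.58.1 in R 4.3.3 (variance trend, all 9 libraries in 1 fit, 6 residual degrees of freedom), two-sided, with Benjamini-Hochberg adjustment over all tested genes and a threshold of 0.05. Fold changes on this scale understate those of low genes. Count models were not applied to FPKM. The value of 1 fragment was read from ratios of low values between libraries, of which 82.4% to 88.7% lay within 0.02 (log2) of ratios of whole numbers up to 3, and from transcript lengths in GENCODE M21, so fragment numbers are approximate and cover counting error only. The steps were tested on simulated data.

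The members, roles and lists were chosen with earlier results of these data known. Genes named are the 6 kinesins with the smallest p in each comparison, the 10 most abundant, and for each partner list the members that passed or the 2 with the smallest p; others are given by level. Aurka for MG against WT was named beside Nusap1 after its value was seen. Cenpe was named as a kinesin outside the name rule. Alternatives covered pseudocount, filter, scaling, variance model, libraries fitted, a replicate block and leaving out each library. Samples that share a replicate number did not deviate together, so the number was not taken as a pairing.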

Additional observations from a re-analysis of the deposited data

How the results depend on the processing

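In all 17 alternatives run for each comparison, 0 kinesins passed by limma, and leaving out each of the 9 libraries gave 0 to 0 calls. All 18 fold changes of named kinesins kept their sign and stayed without a call under every alternative that tested them, 305 values in all. The lowest limma adjusted p was 0.083, for Kif11 in MG against MZ with the same FPKM sum. Kif3b was not tested at the filter of 5 FPKM. Partner genes, among them Nusap1, were not followed through the alternatives. With the same FPKM sum the kinesin median was 0.42 for MG against WT and 0.52 for MG against MZ. Without the filter, 37 kinesins were tested and the median for MZ against WT was 0. Leaving out 1 library, the median ranged from 0.0024 to 0.19 for MG against WT, from -0.19 to -0.023 for MZ against WT and from 0.014 to 0.15 for MG against MZ. The lowest values for MG against WT and MG against MZ came without MG 3. For MZ against WT it was -0.026 without MZ 1, -0.023 without WT 1 and -0.035 without WT 2. Samples with the same replicate number had correlations of deviations between -0.07 and 0.07, and not every sample correlated best with its own number; the replicate block gave 0 kinesin calls in each comparison. Its all-gene calls were 13 for MG against WT (37 without it), 0 for MZ against WT (4 without it) and 159 for MG against MZ (14 without it). Over all alternatives these all-gene calls spanned 3 to 66, 0 to 7 and 0 to 214. With the same FPKM sum 61 genes were higher and 5 lower in MG than in WT, compared with 20 and 17, and 25 higher and 6 lower in MG than in MZ, compared with 8 and 6. The cause was not tested. Low members rest on few fragments, such as 18, 9 and 7 for Kif9 in MG, MZ and WT, which limits what can be seen.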
